A study of Homo sapiens with 8 samples.

Results

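PIM1, PIM2 and PIM3 form a family of 3 serine/threonine kinases, and their RNA was followed here in LP-1 cells treated with a CBP/EP300 or a BET bromodomain inhibitor. They were taken from the deposited table by gene symbol, which gave 4 of its 63129 rows. PIM2 has a second row, ENSG00000267878 on an alternative sequence patch, that is listed at 0 in all 8 libraries and was not used, so 3 rows were tested. LP-1 is a human multiple myeloma line, and the labels give it no engineered allele. SGC-CBP30 occupies the bromodomains of the coactivators CBP and EP300, and CPI203 occupies those of the BET proteins. The groups were 2 libraries of cells given 2.5 μM SGC-CBP30 with 2 of their own DMSO controls, and 2 libraries of cells given 250 nM CPI203 with 2 other DMSO controls, all harvested after 6 hr. The study describes the replicates as biological. LP-1 is 1 line, so the spread given here is between cultures of that line. The labels do not name the experiment of each DMSO pair, and the pairs were matched to the compounds by the naming series of the libraries.

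PIM kinases have no regulatory domain that must be switched on, and they are active as soon as they are made. Their activity therefore follows the amount of transcript and protein, which cytokines raise through JAK kinases and STAT factors and which NF-kappaB can raise as well. They phosphorylate proteins that govern death, translation and division, such as BAD, the eIF4E-binding protein and the CDK inhibitors p21 and p27, and so overlap with the AKT kinases. PIM2 is known for its high level in myeloma, where it supports translation and survival.

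The members differ in where they lie and in the sequence before their start. In the deposited hg19 positions, PIM1 (ENSG00000137193) lies at chr6:37137978-37143202, PIM2 (ENSG00000102096) at chrX:48770458-48776301 and PIM3 (ENSG00000198355) at chr22:50354160-50357728. In GENCODE 29 each has 6 exons, with 313 codons in PIM1, 311 in PIM2 and 326 in PIM3. Their coding sequences are 76.3% identical between PIM1 and PIM3, 68.3% between PIM1 and PIM2 and 68.9% between PIM2 and PIM3. Of the 8141 stretches of 50 bases in their transcripts, 0 were shared between members and 0 occurred in a transcript of another gene, and no gene with a value above 0 overlapped a member. Reads can therefore be told apart between the 3 genes at that length.

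The 250 bases before each RefSeq start are shown, read 5′ to 3′ on the gene's own strand in GRCh38.p14. The windows are chr6:37169902-37170151 (plus strand), chrX:48919025-48919274 (minus strand) and chr22:49960522-49960771 (plus strand). Capitals mark the octamer ATGCAAAT and the CCAAT box, each searched on both strands, and matches lie in the PIM2 window alone.
PIM1: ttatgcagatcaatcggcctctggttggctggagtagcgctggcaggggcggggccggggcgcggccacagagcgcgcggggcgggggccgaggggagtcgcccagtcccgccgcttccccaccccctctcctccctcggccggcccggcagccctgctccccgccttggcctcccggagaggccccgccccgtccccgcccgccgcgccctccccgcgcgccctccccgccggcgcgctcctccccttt
PIM2: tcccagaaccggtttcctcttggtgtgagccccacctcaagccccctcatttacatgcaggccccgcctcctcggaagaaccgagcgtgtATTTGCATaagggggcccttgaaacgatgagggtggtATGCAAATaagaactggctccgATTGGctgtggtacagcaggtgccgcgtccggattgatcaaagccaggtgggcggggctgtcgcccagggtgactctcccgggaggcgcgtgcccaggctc
PIM3: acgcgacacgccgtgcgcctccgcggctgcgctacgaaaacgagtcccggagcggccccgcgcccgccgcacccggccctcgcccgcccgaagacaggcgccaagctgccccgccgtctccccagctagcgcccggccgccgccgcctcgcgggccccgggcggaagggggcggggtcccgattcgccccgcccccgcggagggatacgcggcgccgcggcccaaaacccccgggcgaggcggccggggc

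The PIM1 and PIM3 windows are built mostly of G and C, at 79.6% and 82%, with 32 and 47 CpG dinucleotides. The PIM2 window is 61.2% G and C with 15 CpG, against a median of 58% G and C over 35116 RefSeq promoters cut to the same length. The octamer, the site of the POU factors of B lineage cells, occurs at 2 places in the PIM2 window, starting at -160 and -123 from the start. It was found in 1.63% of all promoters, and 2 or more copies in 0.037%. The single CCAAT box of PIM2 starts at -101, and 32% of promoters hold one. The GC box GGGCGGG, searched on both strands, was found 4 times for PIM1, once for PIM2 and 3 times for PIM3, and in 31.5% of promoters. The E-box CACGTG (6.34% of promoters), the STAT motif TTCNNNGAA (6.57%), TATAAA (10.7%) and the NF-kappaB consensus (9.96%) had no match in these windows. The matches do not overlap one another. The motifs were chosen after the sequences had been seen, and a match describes letters only. A link between these sequences and the changes below was not tested.

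The values are RPKM, read counts divided by gene length and by the number of mapped reads, so levels of the 3 genes can be set side by side. PIM2 was by far the most abundant member. With DMSO of the SGC-CBP30 experiment it stood at 612 ± 14.8 RPKM (SD, n = 2), the 37th highest level among the 14732 genes tested. PIM1 stood at 63.9 ± 1.86 RPKM and PIM3 at 37.3 ± 0.563 RPKM in the same libraries. PIM2 ranked first of the 3 in 8 of 8 libraries, at 84.0 to 90.4% of the summed PIM level in the group means. PIM1 was above PIM3 in DMSO of the SGC-CBP30 experiment and with CPI203, where the ratio of their levels was 1.71 ± 0.024 and 1.79 ± 0.137. The ratio was 0.984 ± 0.0696 with SGC-CBP30 and 1.01 ± 0.0402 in DMSO of the CPI203 experiment, so the order of these neighbours was not distinguishable there.

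**Figure D1:**
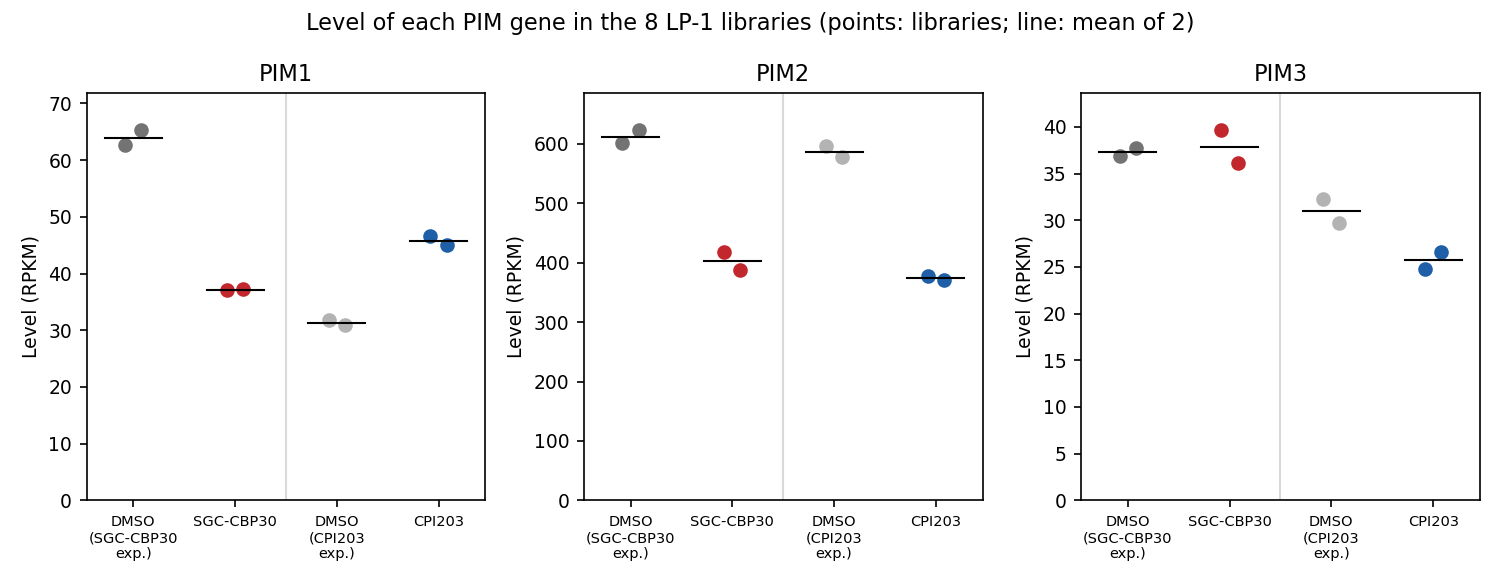
Level of PIM1, PIM2 and PIM3 in RPKM (vertical axes from 0, one panel per gene) in the 8 LP-1 libraries. Points are libraries and lines are means of 2. PIM2 is lower with each compound than in its DMSO pair, whereas PIM1 is lower with SGC-CBP30 and higher with CPI203, and its DMSO pairs stand at 63.9 and 31.4 RPKM.

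The plasma cell identity of the libraries was checked first. All 10 plasma cell markers examined, among them SDC1, TNFRSF17 and XBP1, were at or above 10.9 RPKM in all 8 libraries. Of 5 mature B cell markers none reached 1 RPKM in all libraries, and PAX5 was listed at 0 throughout. BLK reached 10.2 RPKM, and the summed B cell markers were 10.1, 3.56, 2.99 and 1.09 RPKM in DMSO of the SGC-CBP30 experiment, SGC-CBP30, DMSO of the CPI203 experiment and CPI203. The T cell, monocyte and fibroblast markers stayed under 0.5 RPKM, and HBB reached 3.56 RPKM. The part of these differences in the results below was not tested. Total RPKM per library was between 481842 and 498947. Depth, estimated from the steps in low values, was between 26000000 and 50100000 reads, at which the members had at least 1520 reads in each library and a counting error of at most 2.56%. Replicates differed with an SD of 0.081 to 0.10 on the log2 scale over 7150 genes.

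The first question was whether CBP/EP300 bromodomain inhibition lowers the PIM kinases. Against its own DMSO pair, SGC-CBP30 lowered PIM1 and PIM2 and left no detectable change in PIM3. Changes below are log2 fold changes on the log2(RPKM + 0.1) scale with limma's standard error (SE), 95% interval and Benjamini-Hochberg adjusted p over all 14732 genes. A gene is said to have risen or fallen at an adjusted p under 0.05, and is called when it also changed at least 1.5-fold. In bulk RNA, fewer cells making a transcript and less transcript per cell cannot be told apart.

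PIM1, the member first found as an insertion site of a leukemia virus, stood at 62.6 and 65.2 RPKM with DMSO and at 37.0 and 37.3 RPKM with SGC-CBP30. The groups did not overlap, and the treated libraries were nearly equal. It fell by 0.78 on the log2 scale (SE 0.043, interval -0.88 to -0.68, adjusted p = 2.14e-06), a ratio of means of 0.582. Of all genes, 2.35% fell further. The fall depends on the choice of control. With all 4 DMSO libraries the change was -0.27 (adjusted p = 0.591). Against the DMSO pair of the other experiment it was 0.25 (adjusted p = 0.00141).

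PIM2 stood at 601.7 and 622.6 RPKM with DMSO and at 417 and 388 RPKM with SGC-CBP30, again without overlap. It fell by 0.61 (SE 0.038, interval -0.69 to -0.52, adjusted p = 5.09e-06), a ratio of 0.657, and 3.85% of all genes fell further. The fall lies close to the 1.5-fold limit of 0.585. Without SGC-CBP30 replicate 2 the change was -0.55 and without DMSO replicate 2 it was -0.58, both with adjusted p under 0.05 but short of that limit. It was also short of it with all 4 DMSO libraries as controls (-0.58) and after quantile normalization (-0.44).

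PIM3 stood at 36.9 and 37.7 RPKM with DMSO and at 39.6 and 36.2 RPKM with SGC-CBP30. The treated libraries lay on either side of the controls. The change was 0.02 (SE 0.063, interval -0.12 to 0.16, adjusted p = 0.828), so a change beyond 0.16 in either direction lies outside the interval, while a smaller one was not detectable with these libraries.

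Of the 3 members, 2 passed the adjusted p with SGC-CBP30, against 40.4% of all genes (25.6% higher and 14.8% lower). That split turns with the scaling, from 3772 genes higher and 2173 lower as deposited to 2440 and 3118 after median scaling. Both of these were called lower as deposited. Calls with SGC-CBP30 made up 7.26% of all genes, 3.79% lower and 3.47% higher. A permutation of the 4 libraries of one experiment cannot give a two-sided p below 0.333, so the tests rest on the spread shared across genes.

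The second question was whether BET bromodomain inhibition does the same. Against its own DMSO pair, CPI203 lowered PIM2, lowered PIM3 slightly, and raised PIM1. PIM2 stood at 597 and 577 RPKM with DMSO and at 378 and 370.1 RPKM with CPI203. It fell by 0.65 (SE 0.038, interval -0.74 to -0.56, adjusted p = 4.43e-07), a ratio of 0.637. CPI203 moved many more genes than SGC-CBP30, and 12.9% of all genes fell further than PIM2.

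PIM1 stood at 31.8 and 30.9 RPKM with DMSO and at 46.6 and 45.0 RPKM with CPI203. Each treated library was above each control. It rose by 0.55 (SE 0.043, interval 0.45 to 0.64, adjusted p = 2.71e-06), a ratio of 1.46 that is under the 1.5-fold limit, and 15.0% of all genes rose further. The rise too depends on the choice of control. With all 4 DMSO libraries the change was 0.03 (adjusted p = 0.937). Against the DMSO pair of the other experiment it was -0.48 (adjusted p = 4.62e-06).

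PIM3, the last of the family, stood at 32.3 and 29.7 RPKM with DMSO and at 24.8 and 26.6 RPKM with CPI203. The groups did not overlap, although the gap between them was little wider than the spread inside each. It fell by 0.27 (SE 0.063, interval -0.41 to -0.13, adjusted p = 0.00378), a ratio of 0.829, and 29.6% of all genes fell further.

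All 3 members passed the adjusted p with CPI203, as did 64.2% of all genes (31.1% higher and 33.1% lower). PIM2 alone was called. With CPI203 27.8% of all genes were called, 14.4% lower and 13.4% higher, so a single call among 3 genes is near the background.

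**Figure D2:**
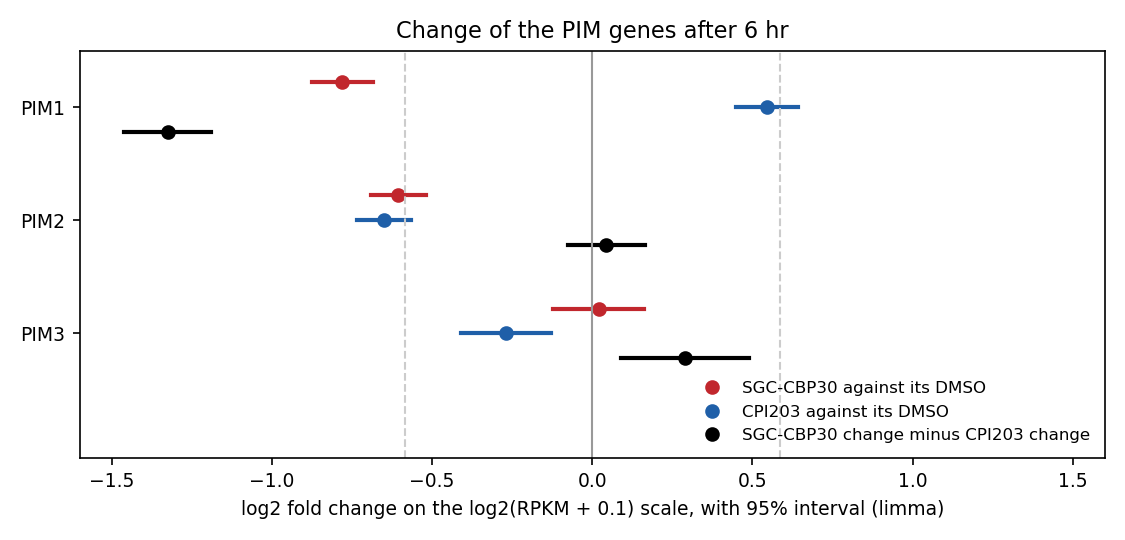
Log2 fold change of each PIM gene (horizontal axis, log2(RPKM + 0.1) scale) with SGC-CBP30, with CPI203, and the difference between the compounds' effects. Points are estimates, bars are 95% intervals of limma, and dashed lines mark 1.5-fold. PIM2 lies at -0.61 and -0.65, and PIM1 has effects of opposite sign, -0.78 and 0.55.

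The compounds were then compared directly by the difference of their effects, each against its own DMSO. For PIM1 the difference, SGC-CBP30 minus CPI203, was -1.33 (SE 0.060, interval -1.46 to -1.19, adjusted p = 4.2e-07), and every treated library moved in the direction of its group. The PIM1 difference includes a gap of 1.02 between the DMSO pairs, while mean levels with SGC-CBP30 and CPI203 were 37.2 and 45.8 RPKM. For PIM2 the difference was 0.04 (SE 0.054, interval -0.08 to 0.16, adjusted p = 0.526). After quantile normalization the PIM2 changes were -0.44 with SGC-CBP30 and -0.69 with CPI203, a difference of 0.25 (adjusted p = 6.63e-04), so whether the compounds differ on PIM2 depends on the scaling. For PIM3 the difference was 0.29 (SE 0.089, interval 0.09 to 0.49, adjusted p = 0.0216), and the adjusted p was between 0.0138 and 0.088 when single libraries were left out. It was above 0.05 without replicate 1 of any of the 4 groups, with estimates from 0.22 to 0.27. Of the 3 members, 2 passed this test, against 50.3% of all genes, and PIM1 alone also reached 1.5-fold, against 24.5%.

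The DMSO pairs were not alike, and the result for PIM1 turns on them. PIM1 was 2.04-fold higher in DMSO of the SGC-CBP30 experiment than in DMSO of the CPI203 experiment, a log2 difference of 1.02 (SE 0.043, interval 0.93 to 1.12, adjusted p = 1.9e-07). Of all genes, 2.92% differed more between the pairs. PIM3 was 0.27 higher (interval 0.13 to 0.41, adjusted p = 0.00775), and PIM2 differed by 0.06 (interval -0.02 to 0.15, adjusted p = 0.23). Of the 3 members, 2 differed at an adjusted p under 0.05, against 41.7% of all genes, and PIM1 alone was past 1.5-fold, against 7.84%.

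Because of this the level of PIM1 with SGC-CBP30, 37.2 ± 0.230 RPKM, lay above the 31.4 ± 0.623 RPKM of the other DMSO pair. Set against that pair, PIM1 was 0.25 higher with SGC-CBP30 (adjusted p = 0.00141), and its change with CPI203 against DMSO of the SGC-CBP30 experiment was -0.48 (adjusted p = 4.62e-06). With all 4 DMSO libraries as controls the PIM1 changes were -0.27 with SGC-CBP30 (adjusted p = 0.591) and 0.03 with CPI203 (adjusted p = 0.937). PIM2 fell under each choice of control, with changes of -0.61 to -0.55 with SGC-CBP30 and of -0.71 to -0.65 with CPI203. Experiment and compound cannot be told apart beyond this, since no library of either compound shares controls with the other.

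**Figure D3:**
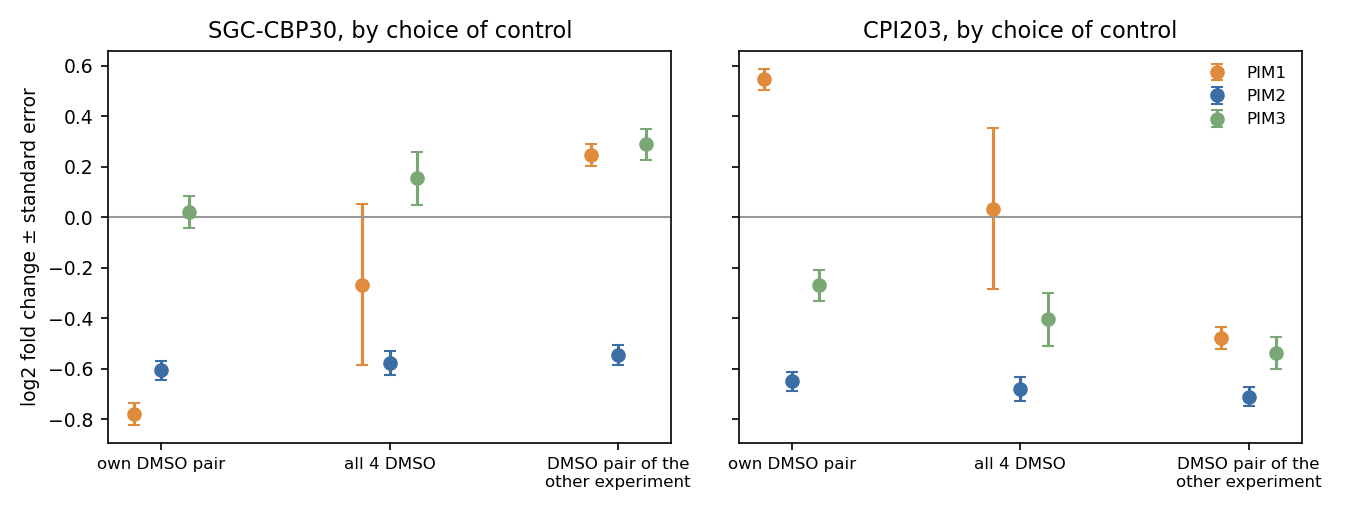
Log2 fold change of each PIM gene ± its standard error (vertical axis) with SGC-CBP30 and with CPI203, against the compound's own DMSO pair, all 4 DMSO libraries, and the DMSO pair of the other experiment. PIM2 stays between -0.55 and -0.71, while PIM1 changes sign with the choice of control.

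The summed level of the family followed PIM2. It was 713 ± 17.2 RPKM with DMSO and 478 ± 23.2 RPKM with SGC-CBP30, a log2 ratio of -0.58, and 649 ± 16.1 against 446 ± 5.51 RPKM with CPI203, a log2 ratio of -0.54. The groups of each experiment did not overlap. The makeup of the sum changed as well. PIM1 took 8.96% of it with DMSO and 7.80% with SGC-CBP30, and 4.83% with DMSO and 10.3% with CPI203. PIM3 took 5.23% and 7.93% in the first experiment and 4.77% and 5.77% in the second. These sums carry no test and say nothing of protein.

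**Figure D4:**
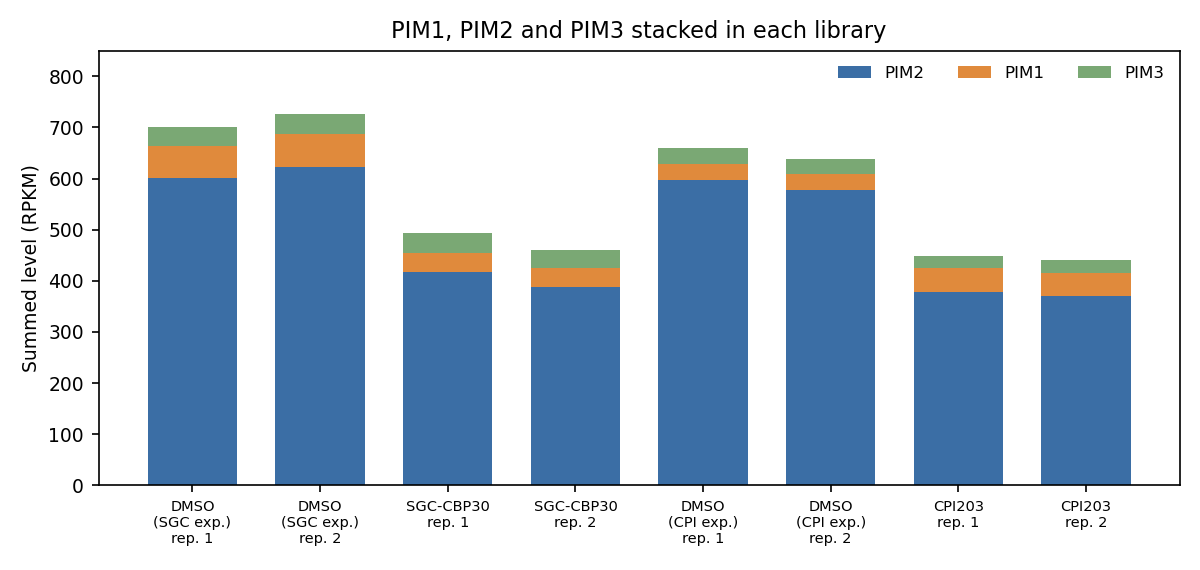
Summed RPKM of PIM2, PIM1 and PIM3 (stacked bars from 0) in each library. The sums are 701 and 726 RPKM in DMSO of the SGC-CBP30 experiment, 494 and 461 with SGC-CBP30, 661 and 638 in DMSO of the CPI203 experiment and 449.5 and 442 with CPI203, and PIM2 makes up most of each bar.

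Over the 8 libraries the members did not follow one another. Pearson's r between their log2 levels was 0.185 for PIM1 and PIM2, 0.190 for PIM1 and PIM3, and 0.404 for PIM2 and PIM3. These values describe libraries that share compounds and controls, and they take in the gap between the DMSO pairs, 1.02 for PIM1. Against their own DMSO pairs, PIM1 and PIM2 both fell with SGC-CBP30 and moved in opposite directions with CPI203. The genes most like PIM2 were POU2AF1 (r = 0.996), ATP8B2 (0.994) and KLF13 (0.994). POU2AF1, a B lineage transcriptional coactivator, stood at 84.0, 39.2, 75.9 and 31.6 RPKM in the 4 groups in the order used above. The genes most like PIM1 were CALM3 (0.993), INSIG1 (0.988) and PVRL1 (0.988). INSIG1, a regulator of sterol synthesis, stood at 288 and 143 RPKM in the SGC-CBP30 experiment and at 124 and 176 RPKM in the CPI203 experiment. For PIM3 they were CHERP (0.995), ILVBL (0.994) and TSSC4 (0.993). With r over 0.9 there were 71 genes for PIM1, 301 for PIM2 and 1282 for PIM3, so the PIM1 pattern was the least common of the 3.

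Within 100 kb of the members, 2 tested genes lie near PIM1, 6 near PIM2 and 3 near PIM3, and none was called with either compound, beside 7.26% of all genes with SGC-CBP30 and 27.8% with CPI203. RPL12P2 and TBC1D22B, the tested neighbours of PIM1, rose with SGC-CBP30, by 0.40 (adjusted p = 0.0143) and 0.35 (adjusted p = 0.00544), and changed by 0.06 and -0.05 with CPI203 (adjusted p = 0.625 and 0.616). PQBP1, a splicing-related gene 10037 bases from PIM2, fell by 0.38 with SGC-CBP30 (adjusted p = 4.55e-05) and by 0.35 with CPI203 (adjusted p = 1.21e-05). The closest genes, SLC35A2 and OTUD5, changed by 0.01 and -0.03 with SGC-CBP30 (adjusted p = 0.935 and 0.665) and by 0.10 and 0.07 with CPI203 (adjusted p = 0.235 and 0.184). ALG12, near PIM3 and a glycosylation enzyme, fell by 0.49 with CPI203 (adjusted p = 2.49e-04).

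The genes around the family were followed by role, in 10 lists of 81 genes of which 67 were tested. With SGC-CBP30 13 rose, 24 fell and 30 did not pass, beside 25.6% higher and 14.8% lower of all genes. After median scaling 9 were higher and 34 lower, and after quantile normalization 11 and 28. As deposited, 2 were called higher and 8 lower, or 14.9% against 7.26% of all genes. With all 4 DMSO libraries as controls 6 of the 67 were called, beside 516 of all 14732 genes. The lists were chosen with earlier results of these data known, so these shares are a description only. Their median change was -0.08, against 0.07 over all genes. With CPI203 25 rose, 27 fell and 15 did not pass, and 11 were called higher and 10 lower, or 31.3% against 27.8%. Their median was 0.02, against -0.01 over all genes. The difference between the compounds passed for 44 of the 67 genes, beside 50.3% of all genes, and reached 1.5-fold for 18, or 26.9% beside 24.5%. Single lists hold too few genes for their counts below to be read as a result about a role.

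**Figure D5:**
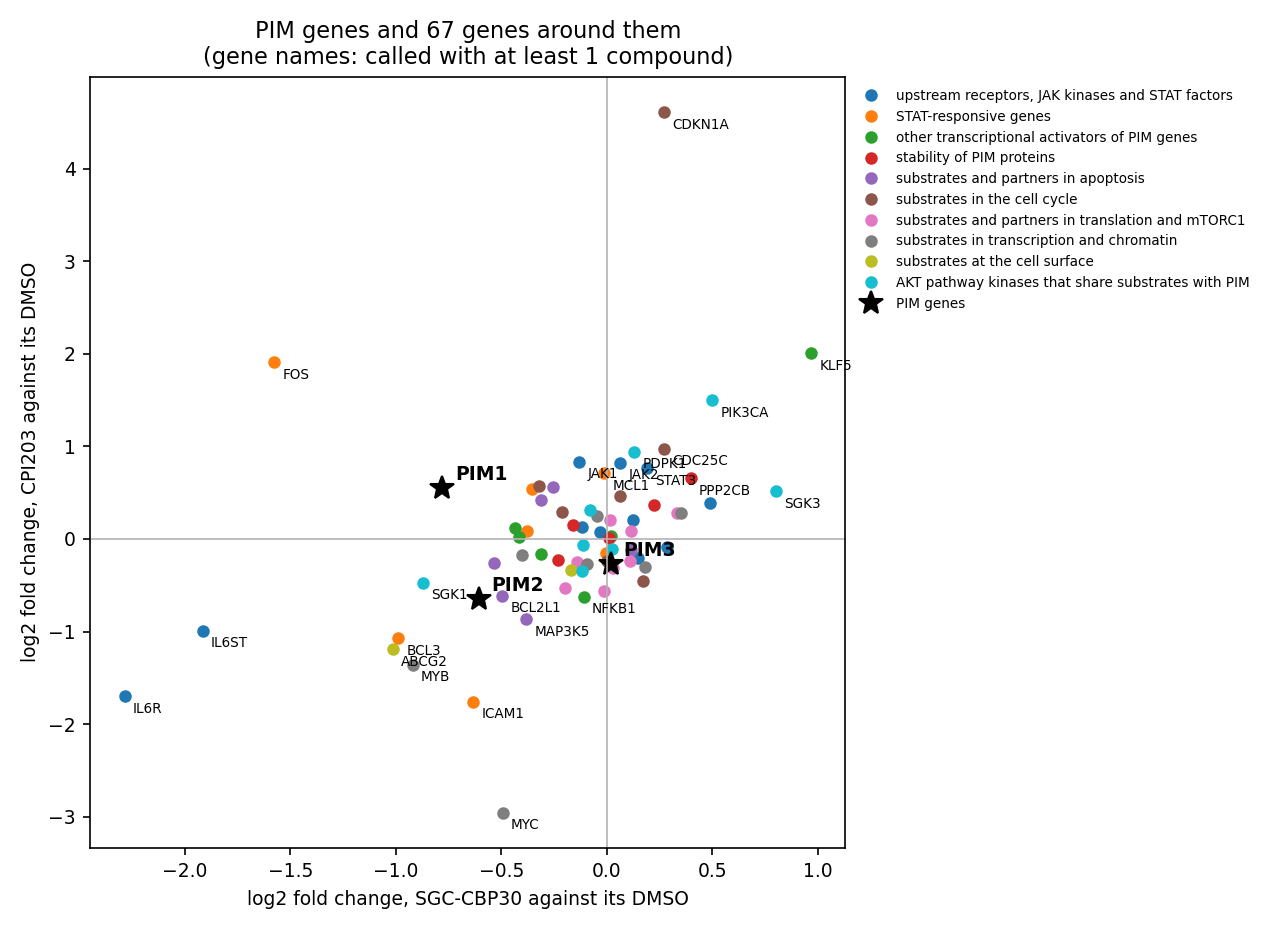
Log2 fold change with SGC-CBP30 (horizontal axis) and with CPI203 (vertical axis) of the 3 PIM genes (stars) and 67 genes around them (points coloured by list). IL6R and IL6ST lie at the lower left, CDKN1A at the top, MYC at the bottom, and FOS lies with PIM1 at the upper left.

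Upstream of the family stand the cytokine receptors, the JAK kinases and the STAT factors. Of 14 genes 11 were tested, and 2 were called lower with SGC-CBP30, while 3 were called higher and 2 lower with CPI203. Calls made up 7.26% and 27.8% of all genes. Both receptor chains for interleukin 6, the main growth cytokine of myeloma, fell with each compound. IL6R, the ligand-binding chain, stood at 28.5 and 27.2 RPKM with DMSO and at 6.09 and 5.19 with SGC-CBP30, and fell by 2.29 (SE 0.08, adjusted p = 1.75e-07). In the other experiment it went from 29.1 and 28.1 RPKM to 8.74 and 8.76 RPKM with CPI203, and fell by 1.70 (SE 0.08, adjusted p = 9.68e-08).

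IL6ST, the signal-transducing chain, fell by 1.92 with SGC-CBP30 (adjusted p = 1.36e-07) and by 0.99 with CPI203 (adjusted p = 6.32e-07). IL6 itself was listed at 0 in all 8 libraries. JAK1 rose by 0.83 with CPI203 (adjusted p = 1.08e-06) and changed by -0.13 with SGC-CBP30 (adjusted p = 0.0944). JAK2 rose by 0.82 with CPI203 (adjusted p = 3.35e-04), from a low level of 2.69 RPKM. STAT3, the factor that IL6 signalling activates, rose by 0.77 with CPI203 (adjusted p = 2.24e-06). With SGC-CBP30 it rose by 0.19 (adjusted p = 0.0276), but the threshold was missed in 8 of 13 alternatives, with adjusted p between 0.0551 and 0.165 when single libraries were left out.

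Of 12 genes that STAT factors can induce, 7 were tested. With SGC-CBP30 3 were called lower and none higher, and with CPI203 2 were called higher and 2 lower, beside 7.26% and 27.8% of all genes called. FOS, an immediate early gene, moved with the same signs as PIM1. It stood at 2.55 and 1.82 RPKM with DMSO and at 0.664 and 0.648 RPKM with SGC-CBP30 (-1.58, adjusted p = 7.96e-04), and at 0.339 and 0.316 RPKM with DMSO and 1.69 and 1.34 RPKM with CPI203 (1.91, adjusted p = 5.73e-05). Its DMSO pairs also stood apart, and with all 4 DMSO libraries as controls neither change passed, at -0.38 (adjusted p = 0.765) and 0.71 (adjusted p = 0.455). FOS averaged 1.17 RPKM over the 8 libraries. It reached the mean of 1 RPKM needed for testing only through DMSO of the SGC-CBP30 experiment. Its adjusted p and its call with SGC-CBP30 are therefore not independent of that high level.

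BCL3, an NF-kappaB cofactor, fell with SGC-CBP30 and CPI203 (-0.99 and -1.07, adjusted p = 5.03e-04 and 7.02e-05). ICAM1, an adhesion molecule, fell with both (-0.63 and -1.76, adjusted p = 2.05e-04 and 5.96e-08). With all 4 DMSO libraries the falls with SGC-CBP30 missed the threshold, at -0.67 for BCL3 (adjusted p = 0.087) and -0.43 for ICAM1 (adjusted p = 0.0776). MCL1, the survival factor of myeloma cells, rose by 0.71 with CPI203 (adjusted p = 5.67e-08), from a mean of 198 to 324 RPKM, and changed by -0.01 with SGC-CBP30 (adjusted p = 0.774). SOCS1 and SOCS3, feedback inhibitors that STAT factors induce, stayed under 0.35 RPKM and were not tested. SOCS2, of the same list, was abundant, at means of 128 RPKM with DMSO of the SGC-CBP30 experiment and 208 RPKM with DMSO of the CPI203 experiment. It changed by -0.003 with SGC-CBP30 (adjusted p = 0.954) and fell by 0.15 with CPI203 (adjusted p = 0.00114).

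Among 8 other activators of PIM genes 6 were tested, and ERG and HOXA9 were listed at 0. KLF5, a zinc finger factor, was called higher with each compound, by 0.97 and 2.01 (adjusted p = 0.00379 and 1.13e-05), from under 1 RPKM. NFKB1, which encodes the p50 subunit of NF-kappaB, fell by 0.63 with CPI203 (adjusted p = 3.15e-06) and changed by -0.11 with SGC-CBP30 (adjusted p = 0.109). NFKB2, RELB and ETS1 fell with SGC-CBP30, short of 1.5-fold (-0.41, -0.31 and -0.44, adjusted p = 7.88e-05, 0.0103 and 0.00106). None of them passed with CPI203. The DMSO pairs differed by 0.41 for NFKB2, 0.71 for RELB and 0.01 for ETS1. Mean levels with SGC-CBP30 were 55.7 RPKM for NFKB2 and 21.7 RPKM for RELB. In DMSO of the CPI203 experiment these genes stood at 55.8 and 16.4 RPKM. RELA, the remaining tested gene of this list, changed by 0.02 with SGC-CBP30 and 0.03 with CPI203 (adjusted p = 0.798 and 0.616). Of the 5 genes for stability of PIM proteins none was called with SGC-CBP30, beside 7.26% of all genes. PPP2CB, a catalytic subunit of the phosphatase PP2A, which promotes the loss of PIM proteins, rose by 0.65 with CPI203 (adjusted p = 5.76e-07) and by 0.40 with SGC-CBP30 (adjusted p = 9.05e-05), the latter at 0.27 with all 4 DMSO libraries (adjusted p = 0.0835).

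The substrates and partners in apoptosis held 6 genes, of which none was called with SGC-CBP30 and 2 were called lower with CPI203. Beside them, 7.26% and 27.8% of all genes were called. BAD, the death factor that PIM kinases silence, changed by 0.12 and -0.12 (adjusted p = 0.175 and 0.138). The survival factor gene BCL2L1 fell by 0.49 with SGC-CBP30 (adjusted p = 1.41e-04) and by 0.61 with CPI203 (adjusted p = 5.89e-06). BCL2 also fell, by 0.53 and 0.26 (adjusted p = 1.0e-04 and 0.00209), short of 1.5-fold. FOXO3 fell by 0.31 with SGC-CBP30 and rose by 0.42 with CPI203 (adjusted p = 0.00336 and 2.06e-04). MAP3K5, the stress kinase ASK1, fell with both (-0.38 and -0.87, adjusted p = 0.0199 and 6.94e-05). With SGC-CBP30, BCL2L1 was at -0.26 with all 4 DMSO libraries (adjusted p = 0.293), and MAP3K5 missed the threshold without DMSO replicate 2 (-0.34) and without either SGC-CBP30 replicate (-0.36 and -0.40).

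The 7 substrates in the cell cycle held no call with SGC-CBP30 and 2 higher with CPI203, beside 7.26% and 27.8% of all genes called. CDKN1A, which encodes p21, stood at 0.217 and 0.121 RPKM with DMSO and at 6.17 and 6.57 RPKM with CPI203, a rise of 4.61 (SE 0.29, adjusted p = 6.43e-07), and changed by 0.27 with SGC-CBP30 (adjusted p = 0.489). The fitted rise is from a level near the pseudocount, and was 2.66 with a pseudocount of 1. Mean CDKN1A levels were 0.174, 0.231 and 0.169 RPKM in DMSO of the SGC-CBP30 experiment, SGC-CBP30 and DMSO of the CPI203 experiment. The gene thus reached the filter, a mean of 1 RPKM, only through the CPI203 libraries. Its adjusted p and its call with CPI203 are therefore not independent of the rise. CDKN1B, which encodes p27, fell by 0.32 with SGC-CBP30 (adjusted p = 1.53e-04) and rose by 0.57 with CPI203 (adjusted p = 6.28e-07). CDC25C, a mitotic phosphatase, rose by 0.27 and 0.98 (adjusted p = 0.0153 and 2.06e-06). The rise with SGC-CBP30 missed the threshold after median scaling (0.20, adjusted p = 0.0546), after quantile normalization (0.18, adjusted p = 0.0804), and without DMSO replicate 2 (0.24) or SGC-CBP30 replicate 2 (0.23).

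None of the 8 substrates and partners in translation and mTORC1 was called with either compound, beside 7.26% (SGC-CBP30) and 27.8% (CPI203) of all genes. EIF4EBP1, which encodes the translation repressor that PIM2 phosphorylates, stood at 128 and 141 RPKM with DMSO and at 121 and 114 RPKM with SGC-CBP30, and fell by 0.20 (adjusted p = 0.0166). This change was 0.19 in the other direction with all 4 DMSO libraries (adjusted p = 0.62), missed the threshold in 5 further alternatives, without DMSO replicate 2 (-0.13) and without SGC-CBP30 replicate 2 (-0.15) among them, and the DMSO pairs differed by 0.78. With CPI203 it fell by 0.53 (adjusted p = 1.59e-05), from 81.3 and 76.0 to 54.2 and 54.6 RPKM.

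Of 9 substrates in transcription and chromatin 7 were tested, with 1 called lower with SGC-CBP30 and 2 with CPI203. Beside these stand 3.79% and 14.4% of all genes called lower. MYC, the oncogene whose protein PIM kinases stabilise, fell by 0.49 with SGC-CBP30 (adjusted p = 1.24e-04) and by 2.96 with CPI203 (adjusted p = 4.97e-10). MYB, a haematopoietic transcription factor gene, fell with both (-0.92 and -1.36, adjusted p = 1.91e-06 and 2.84e-08). At the cell surface, 2 of 3 genes were tested. The transporter gene ABCG2 fell with both (-1.01 and -1.19, adjusted p = 1.31e-04 and 7.65e-06), and CXCR4, the chemokine receptor of marrow homing, fell with both (-0.17 and -0.34, adjusted p = 0.017 and 1.21e-04). The CXCR4 change with SGC-CBP30 missed the threshold with all 4 DMSO libraries (-0.14, adjusted p = 0.112) and without DMSO replicate 2 or SGC-CBP30 replicate 2 (-0.14 each).

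The AKT pathway kinases share substrates with the PIM family, and 8 of 9 were tested. With SGC-CBP30 SGK3 was called higher (0.80, adjusted p = 0.00538) and SGK1 lower (-0.87, adjusted p = 0.00336). The SGK3 change was 0.55 with all 4 DMSO libraries (adjusted p = 0.13) and had an adjusted p of 0.0623 with no filter on low values. With CPI203 PIK3CA, a catalytic subunit of PI3 kinase, rose by 1.5 (adjusted p = 1.07e-07) and PDPK1, the kinase that activates AKT, rose by 0.94 (adjusted p = 1.45e-07). PIK3CA stood at 7.60 and 7.24 RPKM with DMSO and at 21.1 RPKM in both CPI203 libraries.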

How the data were processed

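RNA-seq of LP-1 cells was examined in 8 libraries, 4 groups of 2. The deposited table gives RPKM values per gene, made by a sequencing provider from total RNA. The submitters' processing notes name TopHat 1.4.1, Cufflinks and hg19 without stating their roles, and the annotation release is not given in the sources used here. The table holds 24 columns of other libraries, which were not used. Of 63129 rows, 27 with a missing value were left out, 33312 were above 0 in at least 1 library, and 14732 averaged 1 RPKM or more and entered the test. The scale was log2(RPKM + 0.1). limma 3.58.1 (R 4.3.3) was fitted to 4 group means with an intensity trend, with 4 residual and 5.48 prior degrees of freedom, and p-values were adjusted by Benjamini-Hochberg. The fit was tested on simulated data.

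Read depth was estimated, since the table holds no counts. In single-exon genes low values form steps, and the smallest number of reads that fits them was taken. Between 60.6% and 73.2% of these values lay within 0.1 of a whole read, and a multiple of that number would also give whole values. The RPKM values keep no record of multiply mapped reads.

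Genes named beside the members were the called genes with the largest changes in each list, up to 4 per list and compound, 8 genes named by role, the tested neighbours within 100 kb, and the 3 genes most correlated with each member. NFKB2, RELA, RELB, ETS1, SOCS2, BCL2 and FOXO3 were named besides and are not in the counts of alternative values. The members and lists were chosen with earlier results of these data known. Gene models came from GENCODE 29, of another build, so its positions were not used, and promoters from RefSeq (GRCh38.p14, all 3 members matched). The study states that treated replicates were set against paired DMSO controls, and the labels give only replicate numbers. Same-numbered replicates did not deviate together (correlation -0.254 and -0.117 over 7150 genes), so the main fit did not treat the numbers as pairs. Alternatives were another pseudocount, filters, scalings, controls, a replicate block, separate fits, no intensity trend, and leaving out single libraries. Python 3.11.15, pandas 2.3.3, numpy 2.4.6, Biopython 1.88 and matplotlib 3.10.9 were used.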

Additional observations from a re-analysis of the deposited data

Results flagged for a closer look

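The effects of SGC-CBP30 and CPI203, each against its own DMSO pair, differed at an adjusted p under 0.05 (limma) for 2 members. The difference, SGC-CBP30 minus CPI203, was -1.33 on the log2 scale for PIM1 and 0.29 for PIM3. Both differences include the gap between the DMSO pairs, which was 1.02 for PIM1 and 0.27 for PIM3. Mean levels with SGC-CBP30 and CPI203 were 37.2 and 45.8 RPKM for PIM1 and 37.9 and 25.7 RPKM for PIM3. In the same test 50.3% of all genes passed.

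Over the 67 genes tested around the family 44 passed. The genes named below were mostly chosen for a large change with a compound, which favours a difference between the compounds, so their number is no result. The SGC-CBP30 effect was the lower one for CDKN1A (-4.34), FOS (-3.49), KLF5 (-1.04), PIK3CA (-0.998), JAK1 (-0.96), IL6ST (-0.93), CDKN1B (-0.90), PDPK1 (-0.81), JAK2 (-0.76), MCL1 (-0.73), CDC25C (-0.70), IL6R (-0.59), STAT3 (-0.58) and PPP2CB (-0.26). It was the higher one for MYC (2.46), ICAM1 (1.13), NFKB1 (0.52), MAP3K5 (0.49), MYB (0.44) and EIF4EBP1 (0.33). Each of these differences includes the gap between the DMSO pairs, which was 2.40 for FOS. Mean FOS levels with the compounds were 0.656 RPKM (SGC-CBP30) and 1.51 RPKM (CPI203). CDKN1A reached the mean of 1 RPKM needed for testing only through the CPI203 libraries. FOS reached it only through DMSO of the SGC-CBP30 experiment. Groups of 2 libraries are too small for a search for single libraries that stand apart.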

How the results depend on the processing

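PIM2 fell with both compounds under each of 13 alternatives, with changes of -0.68 to -0.44 with SGC-CBP30 and of -0.69 to -0.63 with CPI203. PIM1 kept its sign and its adjusted p under 0.05 except with other controls. With all 4 DMSO libraries it was -0.27 (SGC-CBP30) and 0.033 (CPI203), and with the DMSO pair of the other experiment, an alternative added after seeing the data, 0.25 and -0.48. The larger standard error with all 4 controls comes from the gap between the DMSO pairs. For the PIM2 difference between compounds, median scaling gave -0.023 and quantile normalization 0.25 (adjusted p = 6.63e-04), and leaving out single libraries gave -0.0094 to 0.097. For PIM3 with SGC-CBP30, median scaling gave -0.057, quantile normalization -0.018, the other DMSO pair 0.29 (adjusted p = 0.00479), and single libraries left out -0.046 to 0.086. The PIM3 difference missed the threshold with no filter (0.29, adjusted p = 0.10), median scaling (0.22, adjusted p = 0.0711) and no intensity trend (0.29, adjusted p = 0.0592), and ran from 0.22 to 0.36 with single libraries left out. The PIM3 gap between DMSO pairs missed it with no filter (0.27, adjusted p = 0.0582) and without CPI203 DMSO replicate 2 (0.21, adjusted p = 0.0587), and ran from 0.21 to 0.33 with single libraries left out. Where 1 library of a group was left out, the other was assumed to vary like the remaining groups. The cause of these changes was not tested.

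Counts of called genes (1070 with SGC-CBP30, 4095 with CPI203, 3609 for the difference and 1155 between DMSO pairs) were 5945, 9459, 7416 and 6150 with no minimum fold, 278, 1558, 1427 and 423 at 2-fold, and 505, 2590, 2358 and 518 at a mean of 5 RPKM. With SGC-CBP30 a pseudocount of 1 gave 667 and all 4 DMSO libraries 516. Of the genes around the family, 37, 52 and 44 were called with no minimum fold (SGC-CBP30, CPI203, difference) and 4, 10 and 5 at 2-fold, and 6 with SGC-CBP30 at a mean of 5 RPKM or with all 4 DMSO libraries. Of the calls with SGC-CBP30 47.8% were higher as deposited, 32.5% after median scaling and 32.4% after quantile normalization, and of those for the difference 60.5%, 51.8% and 50.2%. Among the genes named around the family, 1004 of 1086 alternative values kept their side of the threshold and direction, 59 lost the threshold, 11 gained it and 12 changed sign. The sign changes were the BCL3 difference without replicate 1 of any group (-0.074 to 0.24 over single libraries left out) and changes with SGC-CBP30 of EIF4EBP1 (0.19), NFKB1 (0.027) and JAK2 (-0.052) with all 4 DMSO libraries, of JAK2 with median scaling (-0.011), quantile normalization (-0.018) and without SGC-CBP30 replicate 2 (-0.068), and of MCL1 with quantile normalization (0.075) and without SGC-CBP30 replicate 1 (-0.029 to 0.0048).

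With the replicate number as a block, the PIM1 changes stayed at -0.78 and 0.55 and the PIM3 difference at 0.29 (adjusted p = 0.0432). The block gave 1057, 4120 and 3573 called genes for SGC-CBP30, CPI203 and the difference, and changed no call of a member. With the numbers crossed, a pairing added after seeing the data, the counts were 1085, 4115 and 3624.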
